A study of Mus musculus with 98 samples.

Results

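The 8 genes described here encode the enzymes and partner proteins that write N6-methyladenosine (m6A) on RNA: Mettl3, Mettl14, Wtap, Rbm15, Rbm15b, Zc3h13, Cbll1 and Mettl16. They were taken by gene symbol from each of 9 deposited count tables and make up 8 of the 21812 genes that each table lists. Virma, the scaffold of the same complex, was the target of one of the knockdowns and is given only where a member's value is read beside it. The cells are TBLC (totipotent blastomere-like cells) of the mouse, which in culture resemble early cleavage-stage embryos, and the series has 98 samples, of which 86 have gene counts. Undifferentiated TBLC were kept in 2MYCP medium, and a second culture of them is labelled TBLC2. Differentiated cells (diffTBLC) had spent 3 days in SLM, and were also sorted on CD140, a surface receptor of primitive endoderm, into CD140-negative cells (EPI-T) and CD140-positive cells (PrE-T). A further group, labelled TBLC_PlaB- (the label is not spelled out), had spent 8 hours in SLM, and its control TBLC_Ctrl stayed in 2MYCP medium. The count columns taken as TBLC_PlaB- carry the name TBLC_S, and were assigned because the labels tie no other arm but TBLC_Ctrl to that table. In diffTBLC, siRNAs named siMettl3, siVirma and siIgf2bp3 were set against the control siRNAs siNC, siNC1 and siNC2. RNA bound by the m6A readers Igf2bp3 and Ythdf2 was recovered from diffTBLC with an antibody against each and set against its input. Courses of actinomycin D, which blocks transcription, were read at 0, 1, 2 and 3 h. Every group had 2 replicates, and nothing in the labels says that they came from separate cultures. The p-values on group means therefore reflect spread between 2 libraries of a group, pooled over its table, that may be technical repeats. Those on slopes over the hours reflect that spread together with departure of the hours from a straight line.

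As background, most m6A on messenger RNA is placed by one nuclear complex. METTL3 is its catalytic subunit, and METTL14 pairs with METTL3 and helps to hold the RNA. WTAP, VIRMA, ZC3H13, CBLL1 (also called HAKAI) and either RBM15 or RBM15B form the regulatory part. WTAP ties that part to the catalytic pair, ZC3H13 anchors it in the nucleus, and the RBM15 proteins bind RNA and recruit the complex to it. METTL16 is a separate enzyme, which methylates U6 small nuclear RNA and the transcript of Mat2a, the enzyme that makes the methyl donor. The mark is read by proteins such as YTHDF2, which promotes decay of the bound transcripts, and IGF2BP3, which is known for stabilising them.

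Promoter windows from RefSeq (build GRCm38.p6, the 250 bases before the annotated start) were matched by symbol for 7 of the 8 members, all but Mettl14. The windows of Wtap and Zc3h13 are printed because these 2 genes had the most similar levels across groups of any pair of members, as described at the end. Capitals mark matches to any of 5 motifs, each searched on both strands. The first is the GC box, spelled GGGCGG. The other short one is the CCAAT box, spelled as its name. An ETS factor motif was searched as CCGGAAG, and YY1 and the cyclic AMP response element by the letters AAGATGGCG and by the palindrome TGACGTCA. The window of Wtap, on the minus strand, is chr17:12992544-12992793, and that of Zc3h13, on the plus strand, is chr14:75284116-75284365.
Wtap: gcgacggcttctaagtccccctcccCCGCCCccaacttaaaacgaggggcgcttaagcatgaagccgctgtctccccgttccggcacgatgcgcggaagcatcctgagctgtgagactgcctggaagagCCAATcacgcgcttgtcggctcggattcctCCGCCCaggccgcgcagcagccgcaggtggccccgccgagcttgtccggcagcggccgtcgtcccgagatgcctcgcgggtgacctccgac
Zc3h13: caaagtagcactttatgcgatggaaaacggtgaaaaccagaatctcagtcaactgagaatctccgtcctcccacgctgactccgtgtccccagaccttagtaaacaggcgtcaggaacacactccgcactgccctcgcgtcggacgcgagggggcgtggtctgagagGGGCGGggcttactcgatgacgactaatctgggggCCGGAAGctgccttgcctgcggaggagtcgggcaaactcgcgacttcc
The motif these windows have in common is the GC box, which was found in 4 of the 7 member windows (Wtap, Rbm15b, Zc3h13 and Cbll1) and in 32.9% of all 27025 promoter windows of the same length. The CCAAT box was in the windows of Wtap, Rbm15 and Mettl16 and in 34.5% of all windows, and the ETS motif in that of Zc3h13 and in 7.05% of all. Neither of the other 2 motifs was found in a member's window.

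Library totals were 20302848 to 29471283 counts in the sorted table, 3968442 to 4750020 in the siRNA table, 2483808 to 12666298 in the reader immunoprecipitations and 11433895 to 23145666 in the actinomycin D courses. Behind each member value stood 39 to 8101 counts, and all 8 members passed the filter on low counts in every comparison. Levels are given as CPM (a gene's counts relative to its library's total) after scaling each library by the trimmed mean of M-values (TMM), the tables being scaled separately. Adjusted p-values come from edgeR's quasi-likelihood test with Benjamini-Hochberg adjustment over all genes tested in the table, and a change was called where this was under 0.05. Summed primitive endoderm markers followed the sort (the list includes Pdgfra, a CD140 gene), at 180.0 to 181 CPM in EPI-T, 1534 to 1585 in TBLC and 12856 to 12988 in PrE-T. Epiblast markers summed to 2473 to 2530 CPM in EPI-T, 1266 to 1273 in TBLC and 629 to 637 in PrE-T. Trophectoderm markers summed to 36.8 to 47.0 CPM in EPI-T, 160.4 to 168 in TBLC and 483 to 521 in PrE-T. Markers of the 2-cell embryo summed to 215 to 221 CPM in EPI-T, 114 to 117 in TBLC and 5.53 to 7.69 in PrE-T, where up to 3 of them were at 0. The part of these markers in the sorted comparisons was not tested. Fibroblast and feeder cell markers summed to 839 to 863 CPM in TBLC of that table, against 39.2 to 44.0 in EPI-T and 114 to 118 in PrE-T, and their part in the comparisons with TBLC was not tested. In these bulk libraries, fewer cells of a type and less RNA per cell cannot be told apart.

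The control libraries labelled siNC1 and siNC2 at 0 h stood apart from the rest of their courses. From 0 to 1 h, the median absolute step over all genes was 0.43 (log2) in siNC1 and 0.52 in siNC2, against 0.12 to 0.20 in the other 6 arms. In siNC1 and siNC2 the same step was 1.03 and 1.09 for Zc3h13 and -0.69 and -0.65 for Rbm15. At matched hours the 2 control arms had a Pearson r across genes of 0.993 to 0.998. The chi-square of counts per degree of freedom, which rises with differences beyond counting noise, separated the hours. Between the arms it was 2.68 to 4.45 at 0 h, against 3.19 between replicates of siNC1 and 1.24 of siNC2. At 1 to 3 h it was 5.85 to 13.5 between the arms, against 1.31 to 2.96 between replicates of an arm. The siRNA targets were read in the same libraries. Virma, at 34.7 and 33.6 CPM at 0 h in siVirma and 40.7 and 41.7 in siNC1, was lower by -0.27 ± 0.061 (log2 ± SE) at 0 h and -1.04 ± 0.035 over 1 to 3 h. Igf2bp3 was 0.56 ± 0.079 higher in the libraries labelled siIgf2bp3 at 0 h and was lower over 1 to 3 h (-0.58 ± 0.041), so at 0 h the target went against the label. Comparisons in the siRNA courses are therefore given at 0 h and over 1 to 3 h.

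Sorted PrE-T and EPI-T cells were compared to see which members differ between the endoderm-like and epiblast-like fates. In all, 6 members were lower in PrE-T than in EPI-T, Mettl3 was higher and Rbm15b did not pass the test. The catalytic pair went in opposite directions. Mettl3 was at 17.7 and 16.5 CPM in TBLC, 17.5 and 21.9 in EPI-T and 26.0 and 28.0 in PrE-T. Both PrE-T libraries were above the other 4 (PrE-T against EPI-T 0.46 ± 0.14 (SE), adjusted p = 0.00657; PrE-T against TBLC 0.66 ± 0.14 (SE), adjusted p = 0.000418). Mettl14 was at 76.5 and 83.4 CPM in TBLC, 140.2 and 123 in EPI-T and 51.5 and 61.8 in PrE-T. Here the order was EPI-T, TBLC, PrE-T with no overlap between groups, and EPI-T stood 0.72 ± 0.088 (SE), adjusted p = 1.5e-06, above TBLC. PrE-T was below TBLC by -0.50 ± 0.090 (adjusted p = 0.000113). How many of all genes had no overlap between these groups was not counted. The log2 ratio of Mettl3 to Mettl14 counts was -3.00 to -2.49 in EPI-T, -2.34 to -2.11 in TBLC and -1.14 to -0.99 in PrE-T.

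Among the regulatory subunits, Wtap, which links the catalytic pair to the rest, was at 118 and 115 CPM in TBLC, 134 and 123 in EPI-T and 79.7 and 89.3 in PrE-T. It was lower in PrE-T than in EPI-T (-0.61 ± 0.072 (SE), adjusted p = 8.95e-07), while TBLC and EPI-T did not differ past the threshold (0.14 ± 0.071, adjusted p = 0.0912). Zc3h13, the nuclear anchor, had the same order, at 219.9 and 225, 237 and 233 and 188 and 187 CPM in TBLC, EPI-T and PrE-T (PrE-T against EPI-T -0.32 ± 0.053 (SE), adjusted p = 3.98e-05). Rbm15 stood out in EPI-T, with 57.3 and 60.6 CPM against 46.2 and 40.5 in TBLC and 48.6 and 41.5 in PrE-T. It was higher in EPI-T than in TBLC (0.44 ± 0.10 (SE), adjusted p = 0.000933) and lower in PrE-T than in EPI-T (-0.39 ± 0.10), and PrE-T and TBLC overlapped. Its paralog Rbm15b was highest in TBLC, at 42.2 and 44.4 CPM, against 37.1 and 30.0 in EPI-T and 31.0 and 32.8 in PrE-T. Both sorted fractions were below TBLC (EPI-T -0.36 ± 0.11 (SE), adjusted p = 0.00954; PrE-T -0.44 ± 0.11 (SE), adjusted p = 0.00246) and overlapped each other. Cbll1, an E3 ubiquitin ligase, was at 34.1 and 30.9, 37.5 and 33.3 and 27.6 and 26.7 CPM in TBLC, EPI-T and PrE-T, lower in PrE-T than in EPI-T by -0.39 ± 0.11 (adjusted p = 0.00598).

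Mettl16, the separate enzyme, was at 86.3 and 73.5 CPM in TBLC, 158 and 158 in EPI-T and 115 and 115 in PrE-T. These 3 groups did not overlap, and the share of all genes without overlap was not counted. Mettl16 was higher than TBLC in EPI-T (0.98 ± 0.073 (SE), adjusted p = 2.91e-09) and in PrE-T (0.53 ± 0.073 (SE), adjusted p = 5.91e-06), and lower in PrE-T than in EPI-T (-0.45 ± 0.071). Scaled by library totals, its averages were 104 CPM in PrE-T and 90.4 in TBLC, against 115 and 79.9 with TMM. Those of Mettl3 were 24.4 and 19.3, against 27.0 and 17.1 with TMM. In counts, PrE-T against EPI-T called 7 members (median log2 change -0.39) beside 68.6% of all genes (median 0.03). PrE-T against TBLC called 2 higher and 5 lower (median -0.25) beside 67.3% of all genes, and EPI-T against TBLC 3 higher and 1 lower (median 0.17) beside 64.9%. The shares of members called are near these backgrounds. With scaling by library totals the median of all genes was -0.35 for PrE-T (TMM -0.03) and -0.28 for EPI-T (TMM -0.07) against TBLC, and that scaling gave 2 higher and 2 lower in EPI-T against TBLC. Under it Rbm15 in PrE-T turned from 0.06 to -0.27, adjusted p = 0.0274. In EPI-T Rbm15 averaged 57.6 CPM under that scaling against 49.0 in TBLC, a smaller gap than the 58.9 and 43.3 with TMM. Without EPI-T replicate 1, Mettl3 (0.30, adjusted p = 0.0881) and Cbll1 (-0.29, adjusted p = 0.0716) no longer passed in PrE-T against EPI-T, and Rbm15b in EPI-T against TBLC did not pass without EPI-T replicate 2 (-0.21, adjusted p = 0.155) or TBLC replicate 2 (-0.33, adjusted p = 0.0654). Cbll1 in PrE-T against TBLC (-0.26 ± 0.11, adjusted p = 0.0487) lost its call when any 1 of the 4 libraries was left out (-0.33 to -0.18).

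**Figure D1:**
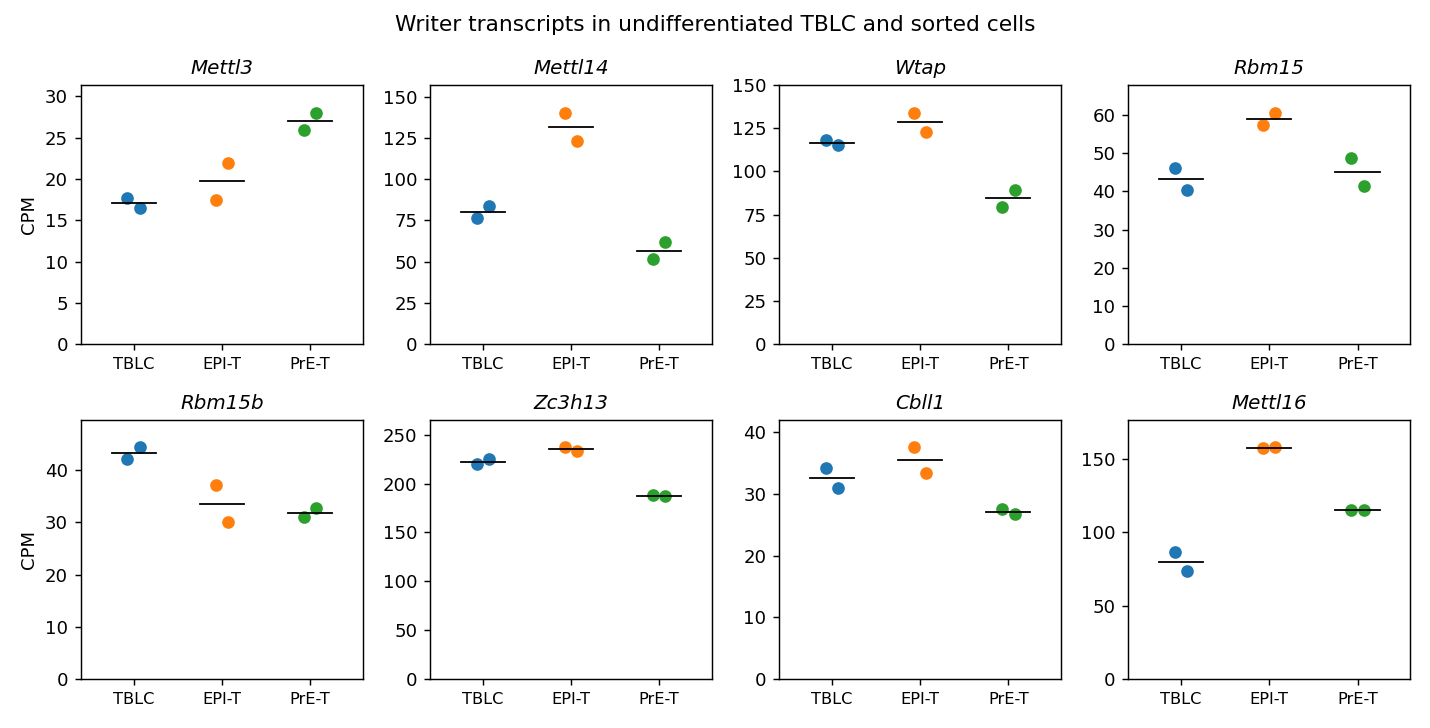
Level of each member (TMM-scaled CPM, linear axis from 0, one panel a gene) in TBLC, EPI-T and PrE-T, with a point for each of the 2 replicates. Mettl3 is highest in PrE-T, Mettl14 and Mettl16 are highest in EPI-T, and Rbm15b is highest in TBLC.

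Other genes of the pathway moved in both directions between the sorted fractions. Virma, the scaffold, did not pass the test in PrE-T against EPI-T (-0.08 ± 0.066, adjusted p = 0.298). It was called lower in PrE-T against TBLC (-0.18) and was not called in EPI-T against TBLC (-0.10). Neither of the 2 erasers, Fto and Alkbh5, was called there, and of 12 readers 3 were higher and 5 lower, among them Igf2bp2 (1.22) and Ythdf2 (-0.79). Of 5 other RNA methyltransferases 1 was higher and 3 lower, including Mettl4 (-1.17) and Mettl5 (-0.69), the enzyme of 18S ribosomal RNA. Of 6 genes of the S-adenosylmethionine cycle, which supplies the methyl group, 0 were higher and 4 lower, including Mat2a (-0.59) and Ahcy (-0.65). In EPI-T against TBLC 9 of the 12 readers, 3 of the 5 methyltransferases and 1 eraser, Alkbh5 (0.45), were higher. PrE-T against the same TBLC libraries was similar, with 8 readers, 3 methyltransferases and 1 eraser higher, and 2 readers and 1 methyltransferase lower. Of the S-adenosylmethionine genes 3 were higher and 1 lower in EPI-T, and 2 higher and 3 lower in PrE-T. Of all 14373 genes tested, 4332 were higher in EPI-T and 4814 in PrE-T.

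The same medium change without sorting was read at 0 h of the first actinomycin D course, in which diffTBLC were compared with TBLC. Wtap, Zc3h13, Rbm15b and Cbll1 were lower in diffTBLC, and Mettl16, Mettl14 and Rbm15 were higher, 7 called members beside 82.5% of all genes (medians -0.14 and 0.02). Mettl16 was at 77.9 and 80.0 CPM in TBLC and 111 and 110.1 in diffTBLC (0.49 ± 0.037 (SE), adjusted p = 4.09e-21). Rbm15b was at 54.5 and 56.8 and 40.5 and 39.9 CPM (-0.47 ± 0.049 (SE), adjusted p = 1.56e-14). Rbm15b was thus lower and Mettl16 higher than in TBLC in 3 comparisons, of which the 2 with sorted cells share their TBLC libraries. Wtap was at 133 and 132 CPM in TBLC and 98.4 and 94.5 in diffTBLC (-0.46 ± 0.033 (SE), adjusted p = 1.91e-22). Cbll1 was at 49.1 and 49.4 and 32.2 and 38.4 CPM (-0.48 ± 0.055 (SE), adjusted p = 5.6e-13). None of these 4 members overlapped between the groups, and the share of all genes without overlap was not counted. Zc3h13 was lower by -0.35 ± 0.040, and Mettl14 and Rbm15 were higher by 0.25 ± 0.049 and 0.22 ± 0.066. Mettl3 was at 33.3 and 31.6 CPM in TBLC and 33.8 and 34.7 in diffTBLC (0.08 ± 0.057 (SE), adjusted p = 0.203).

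Virma was also lower in diffTBLC (-0.61 ± 0.041), as were both erasers, Alkbh5 (-0.46) and Fto (-0.44). Averaged over 1 to 3 h of actinomycin D, the same 7 members were called in the same directions, beside 89.5% of all genes, with Wtap at -0.73 ± 0.023 and Rbm15 at 0.76 ± 0.047. With scaling by library totals the median of all genes was -0.18 at 0 h. That scaling left 1 member higher (Mettl16, 0.28) and 5 lower, took Mettl14 to 0.04, adjusted p = 0.427, and Rbm15 to 0.01, adjusted p = 0.923, and turned Mettl3 to -0.13, adjusted p = 0.0262. Fibroblast markers summed to 328 to 341 CPM in TBLC and 102 to 108 in diffTBLC at 0 h, and primitive endoderm markers to 386 to 393 and 3267 to 3286, and their part was not tested.

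Knockdown in diffTBLC was read for the level of each remaining writer component, and both knockdowns share the siNC libraries. In the libraries labelled siMettl3, Mettl3 itself had 118 and 128 counts against 146 and 141 in siNC, or 26.4 and 27.5 CPM against 31.2 and 29.7. The difference did not pass the test (-0.18 ± 0.15 (SE), adjusted p = 0.771). No member was called in that comparison by edgeR or by DESeq2, and none had an unadjusted p under 0.05, beside 0.865% of all genes called by edgeR. Mettl14, the partner of Mettl3, was at 32.5 and 38.9 CPM in siNC and 36.9 and 45.5 in the libraries labelled siMettl3 (0.21 ± 0.13 (SE), adjusted p = 0.656). The other 6 members had log2 differences of -0.04 to 0.17. Summed primitive endoderm markers were 4582 to 4609 CPM in siMettl3 and 5319 to 5452 in siNC. Of the 8 markers, 6 were called lower in siMettl3 and 0 higher, and their part in these values was not tested.

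With siVirma, Virma was at 87.1 and 81.0 CPM against 122 and 115 in siNC (-0.50 ± 0.085 (SE), adjusted p = 1.88e-06). Wtap, a partner of VIRMA, was the one member called, beside 7.11% of all genes. It was at 102 and 108 CPM in siNC and 125 and 134 in siVirma (0.30 ± 0.080 (SE), adjusted p = 0.00506). DESeq2 did not call it (adjusted p = 0.108), nor did edgeR without siNC replicate 1 (0.26, adjusted p = 0.132) or siVirma replicate 2 (0.25, adjusted p = 0.143). The other 7 members had log2 differences of -0.02 to 0.17. Summed primitive endoderm markers were 3285 to 3286 CPM in siVirma and 5319 to 5452 in siNC, and their part in the change of Wtap was not tested.

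The transcripts of the writers were also measured as cargo of m6A readers. In the Ythdf2 immunoprecipitation 6 members were higher in the bound fraction than in the input and 2 were lower, beside 79.0% of all genes called (median 0.62 for members and 0.02 for all genes). Rbm15b was at 24.3 and 23.7 CPM in input and 196 and 178 in the bound fraction (2.96 ± 0.11 (SE), adjusted p = 2.11e-37). Rbm15 was at 150.0 and 151 CPM in input and 647 and 638 bound (2.09 ± 0.060 (SE), adjusted p = 3.35e-43). Wtap was at 60.4 and 66.4 CPM in input and 176 and 195 bound (1.54 ± 0.085 (SE), adjusted p = 1.03e-26). These 3 regulatory subunits had the highest bound to input ratios of the members, and Virma was near them (2.05 ± 0.081). Cbll1 (15.8 and 17.2 to 26.8 and 30.4 CPM, 0.79 ± 0.16) and Zc3h13 (189 and 214 to 276 and 276 CPM, 0.45 ± 0.062) were also higher in the bound fraction.

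The catalytic subunit was the member most depleted. Mettl3 was at 21.5 and 17.5 CPM in the Ythdf2 input and 9.73 and 9.45 in the bound fraction (-1.01 ± 0.19 (SE), adjusted p = 1.91e-06). Mettl14 (-0.22 ± 0.094, adjusted p = 0.0284) and Mettl16 (0.18 ± 0.081, adjusted p = 0.0391) changed least. Both calls were lost under DESeq2, at adjusted p = 0.125 and 0.211, and on leaving out either input library (Mettl14 -0.20, adjusted p = 0.17; Mettl16 0.17, adjusted p = 0.156). That of Mettl14 was also lost without bound replicate 1 (-0.18, adjusted p = 0.0853), and that of Mettl16 without bound replicate 2 (0.11, adjusted p = 0.236).

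In the Igf2bp3 immunoprecipitation 1 member was higher in the bound fraction and 6 were lower, beside 69.7% of all genes called (medians -0.48 and -0.01). Cbll1 was the exception, at 22.8 and 28.3 CPM in input and 70.6 and 68.6 bound (1.45 ± 0.088 (SE), adjusted p = 1.37e-59). Wtap was at 90.0 and 78.0 CPM in input and 48.4 and 48.0 bound (-0.80 ± 0.070 (SE), adjusted p = 5.47e-30). Mettl14 was at 58.3 and 56.7 and 36.8 and 29.5 CPM (-0.79 ± 0.084 (SE), adjusted p = 4e-20). Input and bound libraries did not overlap for any of these 3 genes, and the share of all genes without overlap was not counted. Mettl3 (-0.67 ± 0.13), Mettl16 (-0.60 ± 0.069), Rbm15 (-0.35 ± 0.055) and Zc3h13 (-0.25 ± 0.045) were also lower in the bound fraction. Rbm15b, the member with the highest ratio in the Ythdf2 experiment, was at 59.3 and 56.3 CPM in input and 54.3 and 60.2 bound (-0.02 ± 0.074 (SE), adjusted p = 0.858), and passed only with library totals (-0.21, adjusted p = 0.00695), a scaling under which the median of all genes was -0.21.

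The 2 immunoprecipitations were not tested against each other, and the labels describe no control antibody, so a ratio here is bound against input and not against background binding. Their inputs also differed, with primitive endoderm markers summing to 5557 to 5668 CPM in the Igf2bp3 input and 690 to 692 in the Ythdf2 input. Input libraries held 2483808 to 5326766 counts and bound libraries 10905348 to 12666298. Among other pathway genes, Mat2a, whose transcript METTL16 methylates, had a bound to input ratio of 3.20 ± 0.076 with Ythdf2. Both erasers, Fto (0.69) and Alkbh5 (0.51), were higher in the Ythdf2 bound fraction. Of the 12 readers, 5 were higher and 6 lower with Ythdf2, and 6 higher and 5 lower with Igf2bp3.

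**Figure D2:**
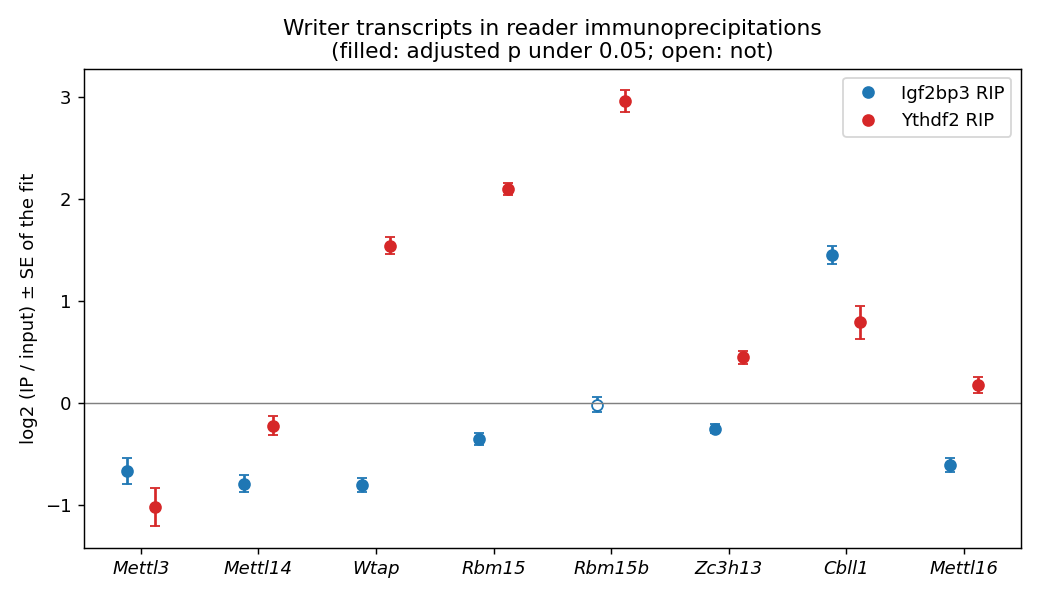
log2 ratio of bound RNA to input for each member, with the SE of the fit, in the Igf2bp3 and Ythdf2 immunoprecipitations (2 bound and 2 input libraries each; filled points passed the test). Rbm15b, Rbm15 and Wtap are highest with Ythdf2, and Cbll1 alone is above 0 among the called members with Igf2bp3.

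Under actinomycin D no new transcripts are made, so the slope of a transcript over hours follows its decay relative to that of all others. No spike-in is described, and slopes are therefore relative to the centre of all transcripts. In siNC1 and siNC2 the slopes also hold the step from the 0 h libraries that stood apart, and need not follow decay. Cbll1 had the steepest decline of the 8 members in all 8 arms, with slopes of -0.66 to -0.55 (log2 per hour), and in each arm it was called. In TBLC it went from 49.1 and 49.4 CPM at 0 h to 13.3 and 13.9 at 3 h, and in diffTBLC from 32.2 and 38.4 to 11.9 and 10.1. Only 2.84 to 5.58% of genes had a lower slope than Cbll1 in these arms. Its call was lost in siNC2 when libraries were scaled on ribosomal protein genes (-0.52, adjusted p = 0.108).

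Rbm15b declined in every arm as well, with slopes of -0.23 to -0.17, and lost its call on that scaling in siNC1 (-0.14, adjusted p = 0.453) and siNC2 (-0.11, adjusted p = 0.579). Wtap declined in 6 of the 8 arms (-0.35 to -0.20), the exceptions being siNC1 (-0.12, adjusted p = 0.0753) and siNC2 (-0.14, adjusted p = 0.0606), where it passed on leaving out 0 h (-0.31 and -0.34). Mettl3, Mettl14 and Mettl16 had slopes between -0.15 and 0.01. Rbm15 ranged from -0.42 ± 0.035 in TBLC to 0.02 ± 0.048 in siIgf2bp3, and was called in TBLC, TBLC_Ctrl, TBLC_PlaB-, siNC1, siVirma and siNC2. Zc3h13 ranged from -0.31 ± 0.092 in siIgf2bp3 to 0.14 ± 0.095 in siNC2, and was called in diffTBLC, TBLC_Ctrl, TBLC_PlaB- and siIgf2bp3. Within-arm counts of members lower with time were 7 in TBLC, 6 in diffTBLC, 8 in TBLC_Ctrl, 8 in TBLC_PlaB-, 3 in siNC1, 5 in siVirma, 4 in siNC2 and 5 in siIgf2bp3, with 0 higher in any arm. The shares of all genes called in those arms, in the same order, were 65.2%, 59.4%, 61.9%, 65.2%, 45.0%, 38.1%, 44.5% and 53.5%.

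**Figure D3:**
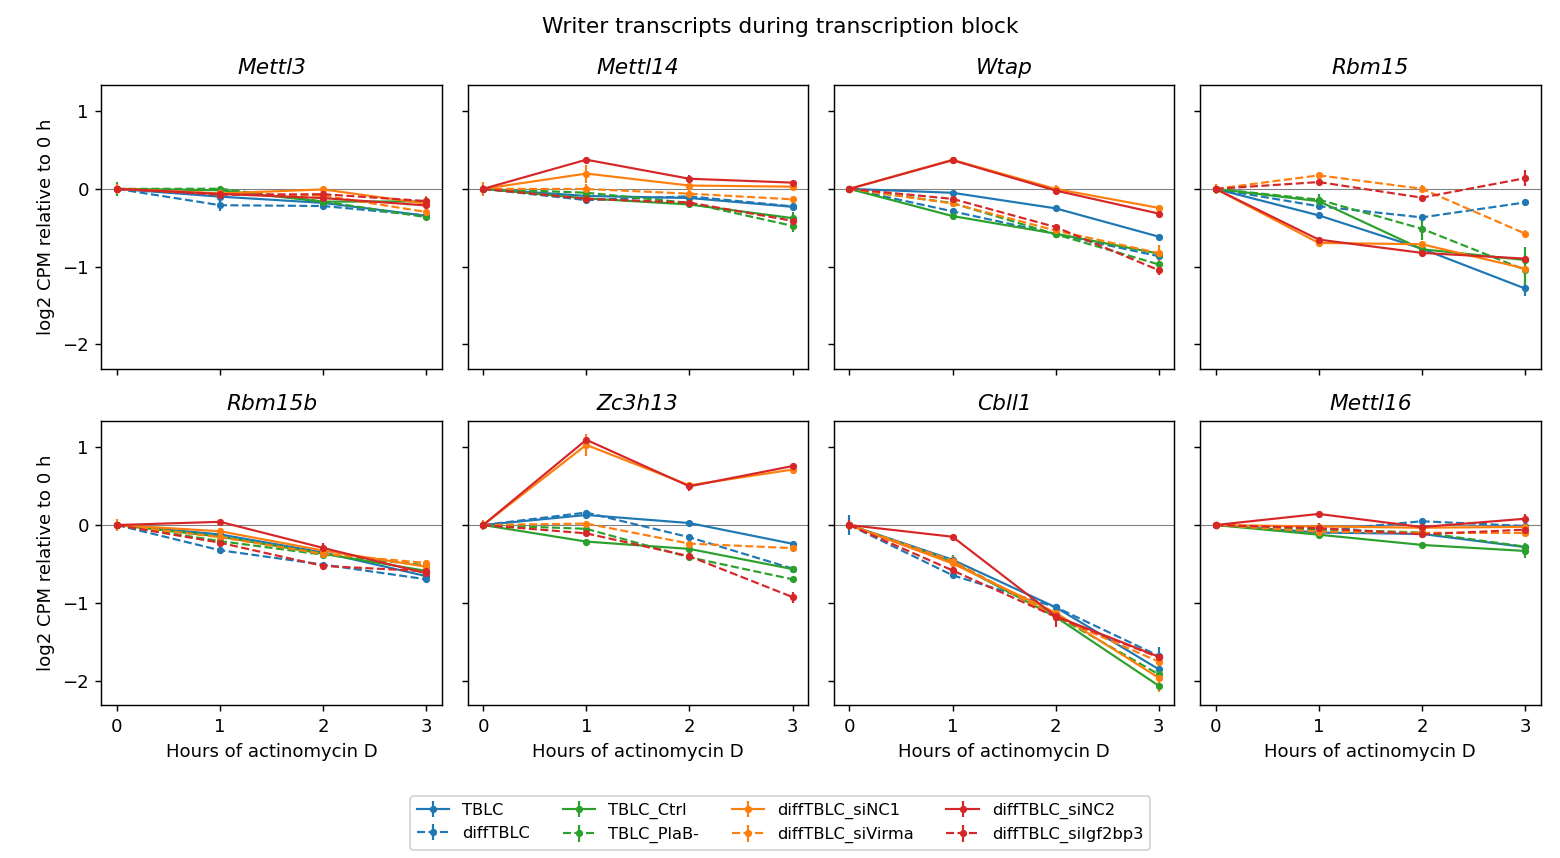
log2 CPM of each member relative to its mean at 0 h against hours of actinomycin D, in 8 arms (lines join means of 2 replicates, and bars run from one replicate to the other). Cbll1 declines in every arm, Rbm15 declines further in TBLC than in diffTBLC, and Zc3h13 jumps upward from 0 to 1 h in siNC1 and siNC2.

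Whether a member's slope differed between TBLC and diffTBLC was tested directly. Rbm15 was the clearest case in this course. In the other arms of diffTBLC its slope was -0.31 in siNC1, -0.29 in siNC2, -0.19 in siVirma and 0.02 in siIgf2bp3. Those arms were not tested against TBLC, and siNC1 and siNC2 hold the 0 h libraries that stood apart. In TBLC it was at 21.8 and 21.4 CPM at 0 h, 17.5 and 16.6 at 1 h, 12.2 and 13.2 at 2 h and 9.54 and 8.28 at 3 h. In diffTBLC it was at 25.1 and 25.1 CPM at 0 h, 21.0 and 22.0 at 1 h, 19.5 and 19.5 at 2 h and 21.6 and 22.9 at 3 h. The TBLC libraries fell at each hour. Those of diffTBLC were lowest at 2 h and below their 0 h level at 3 h, with a slope of -0.07 ± 0.033 (adjusted p = 0.0696) that passed with library totals (-0.19, adjusted p = 1.68e-05), ribosomal protein scaling (-0.37, adjusted p = 2.32e-08) and 3 h against 0 h (-0.06, adjusted p = 0.0303). The slope was 0.35 ± 0.048 log2 per hour higher in diffTBLC (adjusted p = 0.000216), and 0.48, adjusted p = 4.16e-07, on leaving out 0 h. Mettl16 also passed (0.09 ± 0.028 (SE), adjusted p = 0.0437), at 77.9 and 80.0 CPM at 0 h and 67.4 and 62.4 at 3 h in TBLC and 111 and 110.1 and 112 and 108 in diffTBLC. Its call was lost with library totals, with ribosomal protein scaling, without the low-count filter, with the replicate number as a block (0.09, adjusted p = 0.0563) and on leaving out any 1 of 11 of the 16 libraries of the course (0.08 to 0.10). The other 6 members did not pass, and 2 called members stood beside 8.21% of all genes. On leaving out 0 h Zc3h13 (-0.17, adjusted p = 0.000306) and Cbll1 (0.19, adjusted p = 0.0181) passed as well.

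The stay of 8 hours in SLM left the members little different. At 0 h no member differed between TBLC_PlaB- and TBLC_Ctrl by edgeR or DESeq2, with log2 differences of -0.06 to 0.11, beside 1.25% of all genes called. One member, Zc3h13, had an unadjusted p under 0.05 there, at 98.7 and 95.3 CPM in TBLC_Ctrl and 105 and 105 in TBLC_PlaB- (0.11 ± 0.039 (SE), adjusted p = 0.179). Averaged over 1 to 3 h, Zc3h13 was higher in TBLC_PlaB- (0.08 ± 0.026 (SE), adjusted p = 0.012) beside 20.7% of all genes, a call that DESeq2 did not make (adjusted p = 0.103) and that was lost without TBLC_PlaB- replicate 1 at 1 h (0.06, adjusted p = 0.111). Of the slopes, 0 members differed by edgeR or DESeq2 (1 with an unadjusted p under 0.05), beside 0.411% of all genes. On leaving out 0 h the slopes of Wtap (-0.14, adjusted p = 0.00123) and Zc3h13 (-0.15, adjusted p = 0.000854) were lower in TBLC_PlaB-.

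In the siVirma course 4 members differed from siNC1 at 0 h, beside 60.3% of all genes, and 2 over 1 to 3 h, beside 71.5%. Zc3h13 was at 31.8 and 34.9 CPM in siNC1 and 52.0 and 50.6 in siVirma at 0 h. At 1, 2 and 3 h it was at 61.8 and 75.0, 48.2 and 46.8, and 53.5 and 55.8 CPM in siNC1 and 51.1 and 52.9, 42.8 and 44.2, and 40.4 and 43.2 in siVirma. The direction thus turned from higher (0.63 ± 0.074 (SE), adjusted p = 8.82e-09) at 0 h to lower (-0.30 ± 0.040 (SE), adjusted p = 6.05e-08) over 1 to 3 h. Rbm15 turned the other way, from 43.5 and 42.4 CPM in siNC1 and 28.9 and 31.4 in siVirma at 0 h (-0.51 ± 0.064 (SE), adjusted p = 2.41e-08) to a difference of 0.17 ± 0.042 (adjusted p = 0.00068) over 1 to 3 h. Wtap was at 74.6 and 71.4 CPM in siNC1 and 112 and 112 in siVirma at 0 h (0.61 ± 0.056 (SE), adjusted p = 3.1e-11) and did not pass over 1 to 3 h (0.06 ± 0.034, adjusted p = 0.127). Mettl14 passed at 0 h only (0.18 ± 0.072 (SE), adjusted p = 0.0323), and not without siVirma replicate 1 (0.08, adjusted p = 0.427) or siNC1 replicate 2 (0.15, adjusted p = 0.158). Scaling by library totals called all 8 members at 0 h, 7 of them higher, with the median of all genes at 0.24 (TMM 0.05). No slope differed by edgeR or DESeq2 (1 with an unadjusted p under 0.05), beside 8.94% of all genes.

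In the siIgf2bp3 course, set against siNC2 and not tested against the siVirma course, 6 members were called at 0 h, beside 65.7% of all genes, and 3 over 1 to 3 h, beside 70.0%. Zc3h13 was at 37.0 and 36.8 CPM in siNC2 and 62.3 and 65.6 in siIgf2bp3 at 0 h (0.79 ± 0.055 (SE), adjusted p = 1.55e-13). At 3 h it was at 61.4 and 63.4 and 32.0 and 35.3 CPM, and the difference over 1 to 3 h was -0.47 ± 0.032 (adjusted p = 3.96e-14). Rbm15, at 39.7 and 39.6 CPM in siNC2 and 26.3 and 26.9 in siIgf2bp3 at 0 h, went from -0.58 ± 0.063 at 0 h to 0.24 ± 0.041 over 1 to 3 h. Wtap went from 0.42 ± 0.047 to -0.14 ± 0.029. Mettl14 (0.44 ± 0.058), Mettl16 (0.16 ± 0.049) and Rbm15b (0.15 ± 0.057) were higher at 0 h, and the last 2 calls were not made by DESeq2 (adjusted p = 0.217 and 0.429). Both were lost without either siNC2 library (Mettl16 0.13, adjusted p = 0.0882 and 0.11, adjusted p = 0.127; Rbm15b 0.10, adjusted p = 0.263 and 0.12, adjusted p = 0.151). Over 1 to 3 h, scaling by library totals called all 8 members, 7 of them lower, with the median of all genes at -0.15 (TMM -0.02).

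The slopes of 3 members differed between siIgf2bp3 and siNC2, beside 52.4% of all genes: Rbm15 (0.31 ± 0.067 (SE), adjusted p = 0.00277), Zc3h13 (-0.45 ± 0.13 (SE), adjusted p = 0.0127) and Wtap (-0.21 ± 0.081 (SE), adjusted p = 0.0414). On leaving out 0 h none of them passed, at 0.15, adjusted p = 0.292, -0.23, adjusted p = 0.231 and -0.11, adjusted p = 0.258 in the same order, and the number of genes called among all went from 7110 to 0. Wtap was also lost on leaving out any 1 of 9 of the 16 libraries of the course (-0.23 to -0.17). Summed primitive endoderm markers in siNC2 were 1918 to 1939 CPM at 0 h and 2717 to 3715 at 1 to 3 h, against 2305 to 2335 and 1588 to 2327 in siIgf2bp3. In siNC1 they were 1747 to 1841 CPM at 0 h and 2310 to 3115 at 1 to 3 h, against 1171 to 1178 and 965 to 1149 in siVirma, and their part in these results was not tested.

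**Figure D4:**
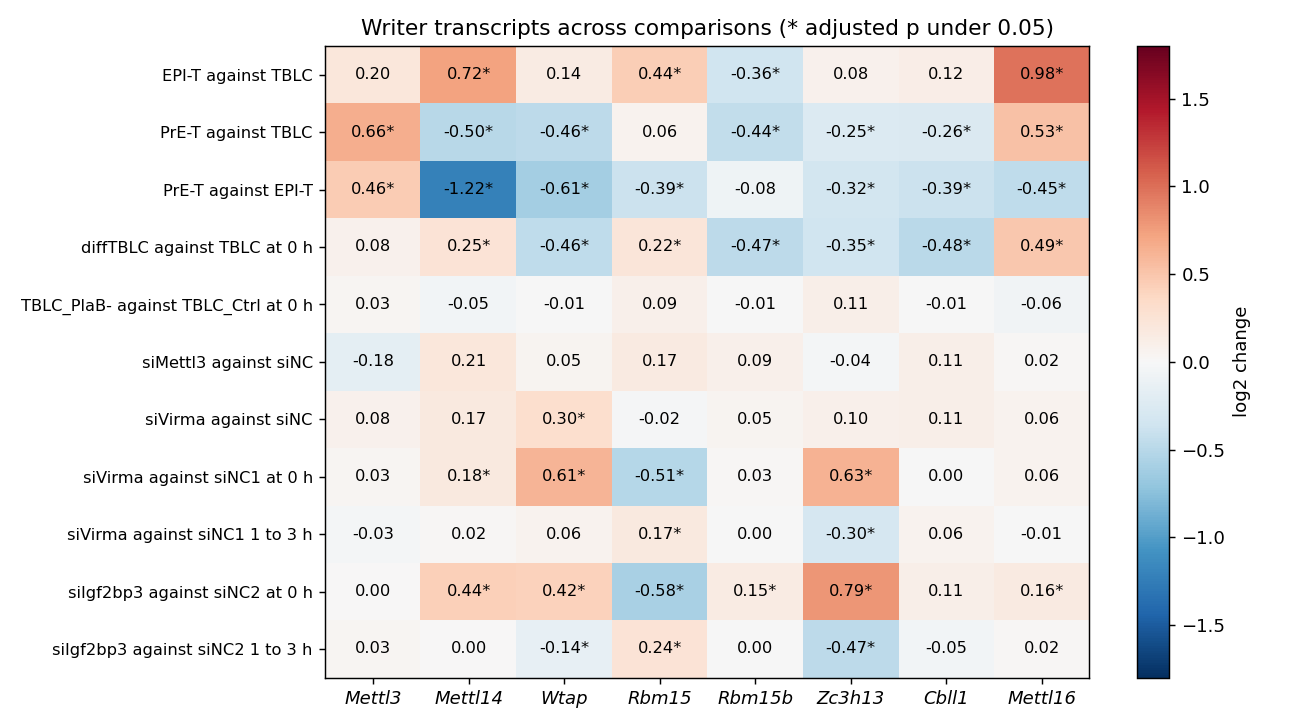
log2 change of each member (columns) in 11 comparisons (lines of the map), coloured from lower (blue) to higher (red), with the value printed and an asterisk where the adjusted p was under 0.05. Mettl16 is higher and Rbm15b lower in EPI-T, PrE-T and diffTBLC against TBLC, and Zc3h13 and Rbm15 change sign between 0 h and 1 to 3 h in both siRNA courses.

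Patterns of level were compared over the 14 groups without hours of actinomycin D, centred within each table, as a description of groups that share tables and libraries. Wtap and Zc3h13 were the closest pair of members (Pearson r = 0.89), and Rbm15b and Mettl16 the most opposed (r = -0.75). Mettl3 and Mettl14, the catalytic pair, had r = -0.50. Without the 2 siRNA courses, which hold the control libraries that stood apart, r over 10 groups was 0.95 for Wtap and Zc3h13 and -0.82 for Rbm15b and Mettl16. Of 11923 genes, the one most like each member was Polr3c for Mettl3 (r = 0.96), Nusap1 for Mettl14 (0.99), Cdon for Wtap (0.98), Gtf3c6 for Rbm15 (0.96), Mrtfb for Rbm15b (0.99), Ankrd11 for Zc3h13 (0.99), Zfp977 for Cbll1 (0.99) and Gart for Mettl16 (0.99).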

How the data were processed

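Total RNA was extracted with TRIzol, and 2 stranded kits were in use for the libraries, per the labels' protocols, which leave unsaid which kit made which. The authors deposited whole-number read counts per gene symbol, made on genome build mm39 with STAR 2.7.11b, Subread, Trim Galore, FastQC 0.12.1 and DESeq2, per the submitters' processing notes, which give no role or order for these tools. The 6 deposited peak lists were not used here. Columns named TBLC_S were read as TBLC_PlaB-, the one arm of their table without columns of its own. No 2 libraries held identical counts.

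Each table was fitted with edgeR 4.0.16 in R 4.3.3 (quasi-likelihood test, TMM scaling, filterByExpr on the table's groups, Benjamini-Hochberg over all genes tested), either on group means or, for the courses, on a straight line over hours. The SE is the log2 change divided by the square root of F. All 8 members were tested in every comparison, and values are printed for a part of them in some. Counts of the other gene lists, with up to 2 genes of the lowest adjusted p, are given for some comparisons only. The members and lists were chosen with earlier results of these data known. Alternatives were DESeq2 1.42.0, other scalings, no filter, a replicate block, fits of only the libraries compared, other sets of hours and leaving out each library. Simulated data held 100 genes changed by 0.5 log2, 100 changed by 1 log2 and no change in the rest. On these the fits recovered 42% of changes of 0.5 log2 in PrE-T against EPI-T, 50% in siMettl3 and 57% with Ythdf2. For the slope of diffTBLC against TBLC they recovered 81% of changes of 0.5 log2 per hour. Changes of that size thus went uncalled in part in that setting. Of the simulated calls, 0.719 to 3.45% were false. The data had far more genes called in PrE-T against EPI-T (68.6%) and with Ythdf2 (79.0%). The recovered and false shares therefore need not hold there.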

Additional observations from a re-analysis of the deposited data

Results flagged for a closer look

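The slopes of 5 member and course combinations under actinomycin D differed between 2 arms by a test of the difference itself. Between diffTBLC and TBLC these were Rbm15 (0.35 log2 per hour) and Mettl16 (0.094). In the siRNA arms of diffTBLC the slope of Rbm15 ranged from -0.31 to 0.02. The call of Mettl16 was lost with library totals, ribosomal protein scaling, no filter and the replicate block. It was also lost on leaving out any 1 of 11 of the 16 libraries. Between siIgf2bp3 and siNC2 they were Wtap (-0.21), Rbm15 (0.31) and Zc3h13 (-0.45), and none of these 3 passed on leaving out 0 h. With 2 replicates a group, no library could be tested for standing apart from its group.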

How the results depend on the processing

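Of 3186 member values recomputed under an alternative, 2988 kept their direction or their place short of the threshold, 111 lost their call, 70 gained one and 17 changed sign with a call on either side, while 147 of the 2988 changed sign between values past the threshold under neither setting. The numbers of called members moved by over 1.5 times in these cases, and smaller moves under these settings are left out. DESeq2 called 0 in siVirma against siNC and 0 in TBLC_PlaB- over 1 to 3 h. For the slope of diffTBLC against TBLC, library totals, no filter, the replicate block and ribosomal protein scaling each gave 1, and leaving out 0 h and 3 h against 0 h each gave 4. Leaving out 0 h gave 2 for the slope of TBLC_PlaB-, and 0 for that of siIgf2bp3 against siNC2. Library totals gave 8 in siVirma at 0 h, 8 in siIgf2bp3 over 1 to 3 h, 5 for the slope of siIgf2bp3 against siNC2 and 8 within siIgf2bp3. Ribosomal protein scaling gave 8 for both of these slopes, 1 within siNC1 and 0 within siNC2. The 3 h against 0 h contrast gave 3 for the slope of siVirma against siNC1 and 6 within siNC1. The cause was not tested.

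Leaving out 1 library in turn, the number of called members was 5 to 7 in PrE-T against EPI-T, 6 to 6 in PrE-T against TBLC, 3 to 5 in EPI-T against TBLC, 0 to 1 in siVirma against siNC, 6 to 7 with Ythdf2, 0 to 2 in TBLC_PlaB- over 1 to 3 h, 3 to 4 in siVirma at 0 h and 2 to 3 over 1 to 3 h, 4 to 6 in siIgf2bp3 at 0 h and 3 to 4 over 1 to 3 h, 1 to 2 for the slope of diffTBLC against TBLC, 0 to 2 for that of siVirma against siNC1, 2 to 4 for that of siIgf2bp3 against siNC2, 3 to 5 within siVirma and within siIgf2bp3, 7 to 8 within TBLC and within TBLC_Ctrl, 5 to 7 within diffTBLC, and 3 to 4 within siNC1 and within siNC2. It did not move in the other 7 comparisons.

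With library totals these values turned: Rbm15 in PrE-T against TBLC (-0.27), Zc3h13 in EPI-T against TBLC (-0.13), Mettl3 in diffTBLC at 0 h (-0.13) and over 1 to 3 h (-0.16), the slope of Mettl16 in diffTBLC (-0.11), Cbll1 in siVirma at 0 h (0.19), Mettl3 (-0.10), Mettl14 (-0.13) and Mettl16 (-0.11) in siIgf2bp3 over 1 to 3 h, and the slope of Rbm15 in siIgf2bp3 (-0.13). With ribosomal protein scaling the slopes of Mettl16 in diffTBLC (-0.30), Rbm15 in siIgf2bp3 (-0.45) and Mettl3 in siNC2 (0.055) turned, as did the slope differences of Mettl3 (-0.57), Rbm15 (-0.31), Rbm15b (-0.57) and Cbll1 (-0.52) in siIgf2bp3 against siNC2, where the median of all genes was -0.62 with that scaling and -0.04 with TMM.

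Counts over all genes that moved by over 1.5 times were those of siMettl3 (105, and 41 to 155), siVirma (863, and 279 to 884), the slope of diffTBLC against TBLC (1188, and 111 to 4728), TBLC_PlaB- at 0 h (177, and 70 to 219) and over 1 to 3 h (2918, and 1531 to 3045), its slope (58, and 8 to 3128), the slope of siVirma against siNC1 (1221, and 0 to 8019), that of siIgf2bp3 against siNC2 (7110, and 0 to 11231), and the slopes within siNC1 (6144, and 742 to 9240), siVirma (5205, and 3684 to 8310), siNC2 (6045, and 449 to 9872) and siIgf2bp3 (7270, and 5911 to 12103).

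Replicate numbers were not taken to pair libraries. Over all genes, deviations of same-numbered libraries from their group means correlated at -0.05 to 0.09. Counting noise of genes with few counts weighs in this check, so it cannot exclude pairing. In siNC1, summed epiblast markers were higher in replicate 2 at every hour (4241 and 4589 CPM at 0 h, 3898 and 4161 at 3 h). In TBLC of the first course the higher replicate changed between hours. Whether the hours of an arm share cultures was not tested. With the number as a replicate block, members called went from 2 to 1 for the slope of diffTBLC against TBLC (Mettl16 lost), from 3 to 2 for that of siIgf2bp3 against siNC2 (Wtap lost) and from 4 to 3 within siNC2 (Mettl3 lost), and did not move elsewhere. The lowest member count, 39, and the input totals of the immunoprecipitations set the precision there.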

Other observations

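The group labelled TBLC2 has no partner group in its table, and its levels enter no test. Its 2 libraries held 5036913 and 5238475 counts. Mettl3 was at 32.3 and 28.5 CPM there, Mettl14 at 29.4 and 30.9, Wtap at 111 and 115 and Rbm15 at 44.4 and 46.8. Rbm15b was at 99.6 and 102 CPM, Zc3h13 at 102 and 116, Cbll1 at 50.4 and 47.2 and Mettl16 at 78.8 and 79.5.

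The balance of the catalytic pair can be set side by side across tables, with no test. The log2 ratio of Mettl3 to Mettl14 counts in undifferentiated cells was -2.22 in the sorted table, -0.34 and -0.32 at 0 h of the 2 courses with TBLC, and 0.01 in TBLC2. In cells after 3 days in SLM it was -1.29 in the Igf2bp3 input, -1.91 in the Ythdf2 input, -0.51 at 0 h of the first course and -0.22 in siNC. The tables were normalized separately, the ratio does not depend on that scaling, and the part of the library kit in it was not tested.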
